A study of Lytechinus variegatus with 18 samples.

Results

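Oxidative phosphorylation subunits were examined in whole wild-type embryos of the sea urchin Lytechinus variegatus. Members were the gene models whose closest Strongylocentrotus purpuratus (purple sea urchin) gene carried a common name beginning with Nduf, Sdha to Sdhd, Uqcr, Cyc1, Cox4 to Cox8 or Atp5, with a mean of at least 5 counts over the 18 libraries (the prefix Sp- and a final _1 of the names are left out here). 60 gene models carried such a name and 58 of the 27230 in the count table met both conditions. The embryos had received ethanol at fertilization or were controls, all were of the genotype WT, and RNA was taken 15, 18 or 21 hours post fertilization (hpf), with 3 biological replicates in each of the 6 groups. The labels give neither the ethanol concentration nor a vehicle for the controls, and each library came from the total RNA of about 150 pooled embryos. The labels do not say that replicates came from separate parents or cultures, so p-values measure the spread between these libraries, part of which may be technical. In RNA of whole embryos, fewer cells of a type and less RNA per cell cannot be told apart.

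Oxidative phosphorylation couples the oxidation of NADH and succinate to ATP synthesis in the inner mitochondrial membrane. Complex I (NADH dehydrogenase) and complex II (succinate dehydrogenase) pass electrons to ubiquinone, complex III passes them to cytochrome c, and complex IV (cytochrome c oxidase) passes them to oxygen. Complexes I, III and IV pump protons, and complex V (ATP synthase) makes ATP from the proton gradient. Most subunits are encoded in the nucleus, a few in mitochondrial DNA, and the rule takes nuclear names only. Sea urchin eggs store mitochondria and maternal mRNA, and how much of the RNA measured here was maternal was not tested.

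The 58 members held 27 complex I subunits, 3 complex I assembly factors (Ndufaf1, Ndufaf2 and Ndufaf7), 5 subunits of complex II, 5 of complex III, 5 of complex IV and 13 of complex V. They carried 50 distinct names and lay on 15 chromosomes of the deposited annotation, whose genome build is not given in the sources used here. The median protein identity to the S. purpuratus hit was 86.1%, from 48.8% to 98.2%. A pair of models fell short of the count condition, namely a second Ndufs7 model (L_var_11175, mean count 4.33) and Cox4L (L_var_15954, mean count 3.72), whose UniProt hit was a retrovirus-related protein. All 58 members passed the expression filter, and the lowest count of any member in any library was 31. One member, Ndufs4 L_var_10538, had a WD repeat protein as its UniProt hit, so its identity as a complex I subunit rests on the S. purpuratus name alone.

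8 names were carried by 2 gene models each, 16 models in all, and reads could have been split between near-identical copies at counting, so each model's level is uncertain while the names' direction was shared. The copies of Atp5a1, Atp5o, Ndufa8, Ndufs4, Ndufv1 and Sdha lay on the same chromosome as each other. Atp5a1 L_var_10606 lay at 20699647 to 20710624 and L_var_10753 at 25911082 to 25921387, both on the plus strand of chromosome 5. On chromosome 1 a Sdha model and a Ndufv1 model lay close together at either place, L_var_01635 near L_var_01638 and L_var_01804 near L_var_01807. Atp5b was the exception, with L_var_20500 at 3325336 to 3336236 on the minus strand of chromosome 13 and L_var_00039, a model of only 279 bases, at 1911188 to 1911466 on the plus strand of chromosome 1.

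Libraries held 7133636 to 8000894 counts and 21041 to 24253 gene models with a count above 0. The 12 fixed markers of skeletogenic mesenchyme, endoderm, pigment cells and ectoderm gave 22 tested gene models. A further match, Msp130r7 (L_var_21936), had counts of 0 to 5 and was not among them. None of the 22 was called on average over the times without the replicate block. In controls their summed level per library ranged from 11285 to 13141 CPM (counts relative to the scaled library total) at 15 hpf, from 8525 to 12494 CPM at 18 hpf and from 6807 to 13441 CPM at 21 hpf. In ethanol embryos it ranged from 7705 to 16273 CPM, from 12618 to 13465 CPM and from 9395 to 19493 CPM at the same times. The libraries of replicate 3 at 21 hpf stood apart: across all genes their ethanol-minus-control difference correlated at r = -0.66 with the mean of the 4 pairs of the other replicate numbers at 15 and 18 hpf, against r = 0.53 to 0.74 for the other 8 pairs. Results that rest on this pair are given with and without it, and since it was left out after its direction had been seen, values without it are descriptions of 16 libraries and no independent support. Ethanol libraries had the higher trimmed mean of M values (TMM) scaling factor and the larger number of detected gene models in 8 of the 9 pairs, and the part of either in the results below was not tested.

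Transcripts of the subunits were lower in ethanol-treated than in control embryos in 8 of the 9 pairs of libraries with the same time and replicate number. Between 54 and 58 of the 58 members were lower in ethanol in each of those 8 pairs, whereas between 46.7% and 51.9% of all tested genes were. In the pair of replicate 3 at 21 hpf, 1 of the 58 was lower. The median difference of the members was -0.68, -0.42 and -1.02 on the log2 CPM scale for replicates 1, 2 and 3 at 15 hpf, -0.97, -0.71 and -1.02 at 18 hpf, and -0.92, -0.60 and 0.81 at 21 hpf. 52 members were lower in ethanol in all 8 other pairs, 4 in 7 of them and 2 in 6.

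**Figure D1:**
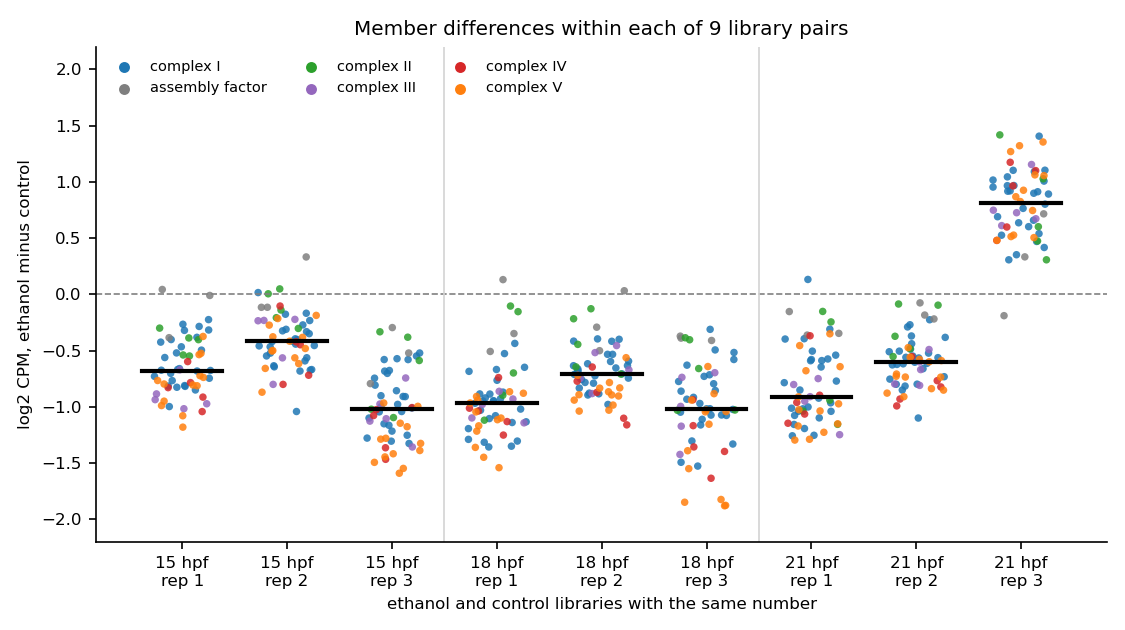
Ethanol minus control difference of each member in log2 CPM (vertical axis) for the 9 pairs of libraries (horizontal axis), with 1 point per gene model coloured by complex and a black bar at the median of the 58. The medians lie between -1.02 and -0.42 in 8 pairs and at 0.81 in replicate 3 at 21 hpf.

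The members together took 0.636%, 0.851% and 1.23% of all counts in the control libraries at 15 hpf, in ascending order, and 0.459%, 0.515% and 1.01% in the ethanol libraries. At 18 hpf the shares were 0.940%, 1.01% and 1.38% in controls and 0.518%, 0.605% and 0.993% in ethanol embryos. At 21 hpf they were 0.787%, 1.28% and 1.49% in controls and 0.773%, 1.11% and 1.15% in ethanol embryos. The groups overlapped at each of the 3 times, because libraries of the same group spread widely. The 95% Wilson interval of a share reached at most 0.00859 percentage points to either side, which covers counting error only.

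**Figure D2:**
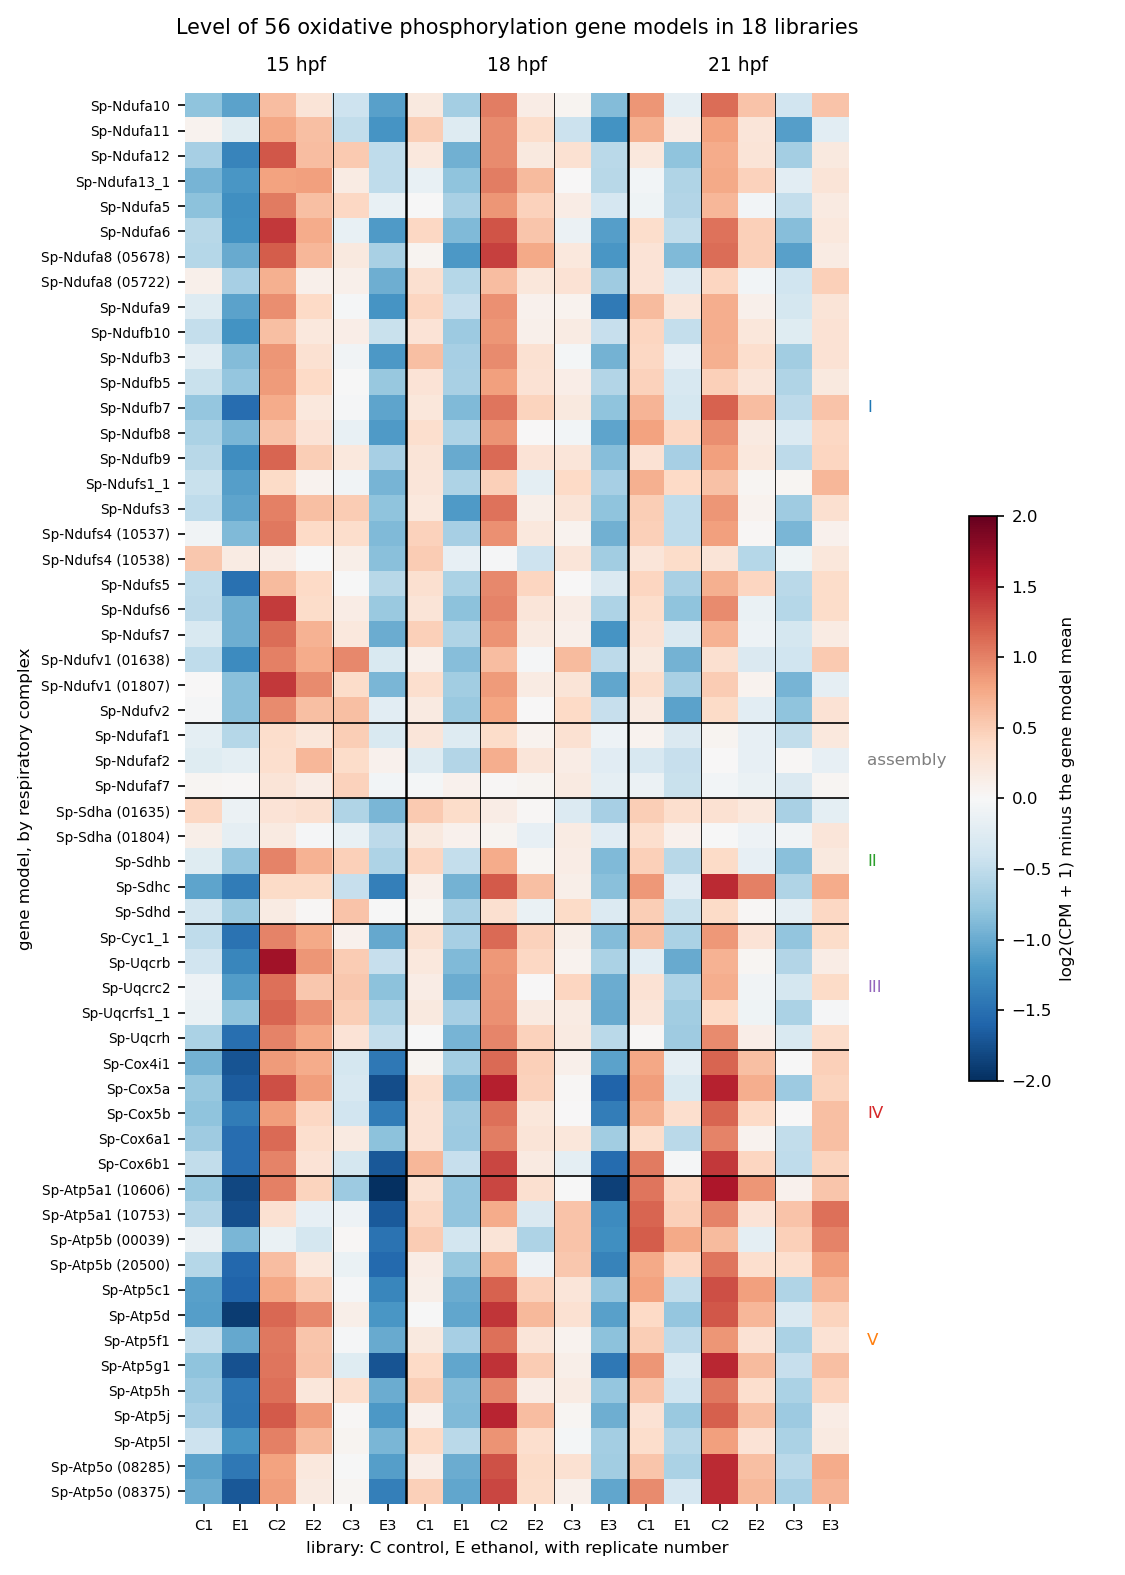
Level of 56 of the 58 members (vertical axis, ordered by complex) in the 18 libraries (horizontal axis, C control and E ethanol of the same time and replicate number side by side), as log2(CPM + 1) minus the gene model's mean over all libraries. Ethanol columns are lower than the control column beside them in 8 of 9 pairs, and replicate number also separates columns within a group.

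Single genes were tested with edgeR's quasi-likelihood test, and the Benjamini-Hochberg adjustment ran over all 18674 gene models tested, with a threshold of 0.05. No member passed at 15, 18 or 21 hpf, where 0.0589%, 0.0% and 0.0% of all tested gene models did. At an unadjusted p under 0.05 there were 3 members at 15 hpf, 11 at 18 hpf and 0 at 21 hpf. Of all 18674 tested gene models, 2038, 3070 and 128 were under it at these times. DESeq2 also called 0 members at each of these times (0.835%, 1.49% and 0.0% of all tested gene models). Members below 0 numbered 57, 58 and 56 of 58 at the 3 times, beside 47.0%, 46.9% and 53.8% of all tested gene models. In time order, their median log2 fold change (ethanol over control) was -0.60, -0.89 and -0.27, beside 0.04, 0.05 and -0.02 for all tested gene models. The median member thus stood at 65.8%, 54.1% and 83.0% of its control level. Without the pair of replicate 3, all 58 were below 0 at 21 hpf (48.6% of all gene models), at a median of -0.71 (61.2% of control), and none passed (0.0628% of all gene models).

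Averaged over the 3 times, all 58 members had a fold change below 0, with a median of -0.59 beside 0.03 for all tested gene models, of which 47.2% were below 0. 26 members had an unadjusted p under 0.05, as did 4293 of all 18674 tested gene models. None had an adjusted p under 0.05, where 0.53% of all tested gene models passed, and DESeq2 called 2 as lower (4.55%). A decrease of more than 0.5 on the log2 scale was estimated for 42 of the 58 members and for 11% of all tested gene models. Without the replicate 3 pair at 21 hpf, 11 members were called as lower, while 9.86% of all gene models were. The median of the members became -0.75 (59.5% of control). A dependence of the ethanol effect on time was called for no member, with a smallest unadjusted p of 0.151 for Atp5b L_var_00039, and 0.0% of all tested gene models passed.

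At 15 and 18 hpf, libraries of the same number departed from their group means together, and the blocked fit, which adds the replicate number as a term, called 0 members at 15 hpf (0.477% of all tested gene models) and 4 as lower at 18 hpf (2.61%). The 4 called at 18 hpf were both Atp5a1 models, Atp5b L_var_00039 and Uqcrc2, each at an adjusted p of 0.048, just under the threshold. Leaving out replicate number 1 or 2 left 0 of these calls, and leaving out number 3 gave 7 (3.5% of all tested gene models lower). Without the replicate 3 pair at 21 hpf, which adds to the estimate of the spread in every comparison, the blocked fit called 25 members as lower at 15 hpf (9.46% of all gene models), 50 at 18 hpf (14.7%) and 14 at 21 hpf (6.03%). At 18 hpf these were 24 of 27 complex I subunits, 3 of 5 of complex II, 5 of 5 of complex III, 5 of 5 of complex IV and 13 of 13 of complex V, and 0 of 3 assembly factors.

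**Figure D3:**
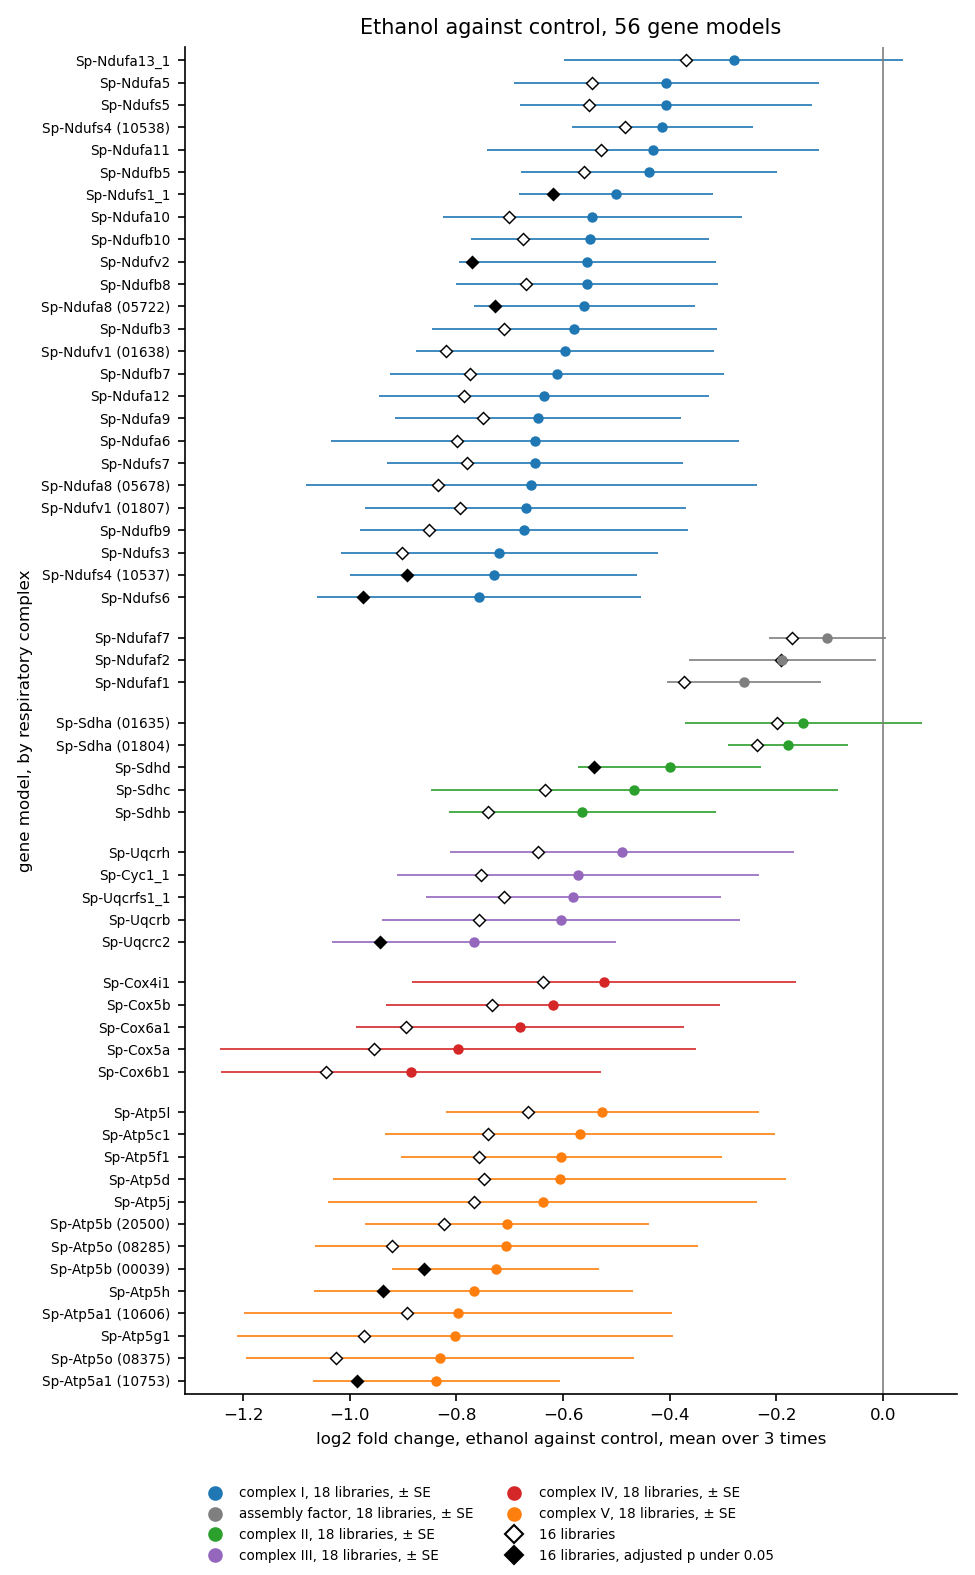
Log2 fold change of ethanol over control averaged over 15, 18 and 21 hpf for 56 of the 58 members, grouped by complex, with circles and bars for the estimate ± SE from 18 libraries and diamonds for that from 16 libraries without replicate 3 at 21 hpf (filled where the adjusted p is under 0.05). All circles shown lie below 0, and 10 of the diamonds shown are filled.

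Complex I transfers electrons from NADH through flavin and a chain of iron-sulfur clusters. Its 27 subunits had a median log2 fold change of -0.66, -0.86 and -0.25 at the 3 times and -0.56 on average. Among the core subunits of the matrix arm, the average was -0.60 ± 0.28 (SE) for Ndufv1 L_var_01638 and -0.67 ± 0.30 for L_var_01807, which bind NADH and flavin, and -0.55 ± 0.24 for Ndufv2. It was -0.50 ± 0.18 for Ndufs1, the largest iron-sulfur subunit, -0.72 ± 0.30 for Ndufs3, and -0.65 ± 0.28 for Ndufs7, which carries the cluster next to ubiquinone.

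Ndufs1 (L_var_21450, chromosome 13, 32277900 to 32302875, plus strand) stood at 227, 267 and 253 CPM in the controls of 18 hpf and at 124, 166 and 120.1 CPM in the ethanol libraries, replicates 1, 2 and 3 in order. Every ethanol library lay below every control library, and the groups did not overlap. The log2 fold change was -0.86 ± 0.32 (SE, n = 3 against 3, edgeR adjusted p = 0.25). At 21 hpf the controls held 313, 287 and 196 CPM and the ethanol libraries 253, 196 and 304 CPM, with overlap, the highest ethanol library being replicate 3.

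The accessory subunits of complex I had values in the same range. Ndufs6, a zinc-binding subunit, had an average of -0.76 ± 0.30, the lowest of the complex, and Ndufa13, also a regulator of cell death in mammals, had -0.28 ± 0.32, the highest. Ndufb9 had -0.67 ± 0.31, Ndufb7 -0.61 ± 0.31, Ndufb10 -0.55 ± 0.22 and Ndufa10 -0.55 ± 0.28. The copies of a name had the same sign. Ndufa8 gave -0.66 ± 0.42 and -0.56 ± 0.21, and Ndufs4, an accessory subunit that stabilises the NADH-oxidising module, gave -0.73 ± 0.27 for L_var_10537 and -0.41 ± 0.17 for L_var_10538. Over the 16 libraries without the replicate 3 pair at 21 hpf, all 27 averages were below 0. Of these, 6 were called as lower, while 9.86% of all gene models were. Among the 6 were Ndufa8 L_var_05722, Ndufs4 L_var_10537, Ndufv2, Ndufs1 and Ndufs6, at edgeR adjusted p from 0.028 to 0.043.

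The 3 assembly factors, which help build complex I and are not part of it, had averages of -0.26 ± 0.14 (Ndufaf1), -0.19 ± 0.18 (Ndufaf2) and -0.10 ± 0.11 (Ndufaf7). Ndufaf7 (chromosome 7, 25567421 to 25579740, plus strand), a mitochondrial methyltransferase, stood at 32.2, 37.8 and 43.7 CPM in the controls of 15 hpf and 32.0, 34.9 and 30.4 CPM in ethanol. At 18 hpf it was 30.7, 31.9 and 35.8 CPM in controls and 33.6, 32.6 and 27.6 CPM in ethanol. Groups overlapped at both times, and the 18 hpf difference was -0.07 ± 0.19 (adjusted p = 0.87). None of the 3 was called in the fits without the block. Ndufaf2 at 15 hpf (0.05), Ndufaf1 at 21 hpf (0.04) and Sdha L_var_01635 at 21 hpf (0.01) were the member values above 0 at single times.

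Complex II is also an enzyme of the tricarboxylic acid (TCA) cycle. Its median was -0.32, -0.59 and -0.22 at the 3 times and -0.40 on average, the median nearest to 0 among the 5 complexes at each of these points. The catalytic flavoprotein Sdha had the averages nearest to 0 of any member outside the assembly factors, at -0.15 ± 0.22 for L_var_01635 and -0.18 ± 0.11 for L_var_01804. The iron-sulfur subunit Sdhb had -0.56 ± 0.25, and the membrane anchors Sdhc and Sdhd had -0.47 ± 0.38 and -0.40 ± 0.17.

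Sdha L_var_01804 stood at 92.7, 96.6 and 76.6 CPM in the controls of 15 hpf and at 75.3, 83.6 and 58.7 CPM in ethanol. At 18 hpf it was 97.2, 88.2 and 95.3 CPM in controls and 90.4, 75.8 and 72.8 CPM in ethanol. Each ethanol library was below the control of its own number, but the groups overlapped at both times. At 21 hpf controls held 108, 84.6 and 81.2 CPM and ethanol libraries 90.8, 79.7 and 101 CPM. The 18 hpf difference was -0.23 ± 0.19 (edgeR adjusted p = 0.53). In the blocked fit without the replicate 3 pair, where 55 of 58 members were called as lower on average over the times (23.2% of all gene models), the 3 not called were Ndufaf2, Ndufaf7 and Sdha L_var_01635.

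Complex III had a median of -0.56, -0.83 and -0.33 at the 3 times and -0.58 on average. The core protein Uqcrc2 had the lowest average of its 5 subunits, at -0.77 ± 0.27, followed by Uqcrb at -0.60 ± 0.34, the Rieske iron-sulfur protein Uqcrfs1 at -0.58 ± 0.28, the cytochrome subunit Cyc1 at -0.57 ± 0.34 and the hinge protein Uqcrh at -0.49 ± 0.32. The spread of these 5 averages was smaller than the SE of Uqcrb.

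Uqcrc2 (L_var_17235, chromosome 10, 9567105 to 9587413, minus strand) stood at 504, 846 and 616 CPM in the controls of 18 hpf and at 228, 459 and 229 CPM in ethanol, a mean of 655 ± 174 against 305 ± 133 CPM (SD, n = 3). The ethanol libraries were lower without overlap. The log2 fold change was -1.10 ± 0.46 without the block (adjusted p = 0.27) and -1.15 ± 0.30 with it (adjusted p = 0.048). At 15 hpf, replicate 2 was highest in both groups, with 978 CPM in the control and 661 CPM in ethanol, against 425 and 660.1 CPM in the other controls and 209.8 and 257 CPM in the other ethanol libraries. The ranges overlapped at 15 hpf, the replicate 2 ethanol library standing between the controls.

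Complex IV hands electrons to oxygen at subunits encoded in mitochondrial DNA, around which the nuclear subunits named here are arranged. Its median was -0.68, -1.02 and -0.38 at the 3 times and -0.68 on average. Cox6b1 had -0.89 ± 0.36, the lowest average of all 58 members, Cox5a -0.80 ± 0.45, Cox6a1 -0.68 ± 0.31, Cox5b -0.62 ± 0.31 and Cox4i1 -0.52 ± 0.36. None was called in the fits without the block.

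Cox6b1 (L_var_17855, chromosome 10, 28584778 to 28586654, minus strand), which faces the cytochrome c side of the enzyme, stood at 139, 222 and 75.7 CPM in the controls of 18 hpf and at 63.3, 99.2 and 29.4 CPM in ethanol. Each ethanol library was at under 50% of the control of its own number, yet the groups overlapped because replicate 3 was low in both. The unblocked difference was -1.19 ± 0.62 (adjusted p = 0.33) and the blocked one -1.21 ± 0.36 (adjusted p = 0.055). At 21 hpf the controls held 180.0, 233 and 61.1 CPM and the ethanol libraries 85.9, 117 and 119 CPM, and the replicate 3 pair alone ran upwards.

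Complex V had the lowest median at 15 hpf (-0.76) and on average (-0.71), with -1.01 at 18 hpf, where complex IV was marginally lower, and -0.32 at 21 hpf. No test of a difference between complexes was made. In the catalytic head, Atp5a1 (alpha) had averages of -0.80 ± 0.40 for L_var_10606 and -0.84 ± 0.23 for L_var_10753, Atp5b (beta, which holds the catalytic sites) -0.73 ± 0.19 for L_var_00039 and -0.71 ± 0.27 for L_var_20500, Atp5c1 (gamma, the central rotor stalk) -0.57 ± 0.37 and Atp5d (delta) -0.61 ± 0.43. In the stator, Atp5o, which links head and peripheral stalk, had -0.71 ± 0.36 and -0.83 ± 0.36, Atp5h had -0.77 ± 0.30 and Atp5f1 -0.60 ± 0.30. Atp5g1, of the rotor ring through which protons pass, had -0.80 ± 0.41.

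Atp5a1 L_var_10753 stood at 469.6, 590.0 and 522 CPM in the controls of 18 hpf and at 202, 287 and 147 CPM in ethanol, a mean of 527 ± 60.4 against 212 ± 70.6 CPM (SD, n = 3). The groups did not overlap. The log2 fold change was -1.31 ± 0.41 (adjusted p = 0.24) without and -1.35 ± 0.35 (adjusted p = 0.048) with the block. At 15 hpf controls held 235, 436 and 329 CPM and ethanol libraries 103, 312 and 109 CPM, and replicate 2 of ethanol lay above replicate 1 of the controls. The difference was -0.93 ± 0.40 (adjusted p = 0.43).

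Atp5b L_var_20500, with the highest mean CPM of the 58 members (1276, not corrected for length), stood at 1243, 1865 and 1625 CPM in the controls of 18 hpf and 662, 1046 and 441 CPM in ethanol. Its difference was -1.14 ± 0.47 (adjusted p = 0.27). The short model L_var_00039 had 58.3, 48.8 and 61.2 CPM in controls and 31.5, 26.2 and 16.8 CPM in ethanol, a difference of -1.18 ± 0.34 (adjusted p = 0.23). In neither model did the groups overlap at 18 hpf. At 15 hpf L_var_00039 had 37.5, 37.1 and 41.3 CPM in controls and 21.2, 32.0 and 14 CPM in ethanol, and it was the 1 member without overlap at that time. The lowest mean CPM, 11.1 and likewise not corrected for length, was that of Ndufa8 L_var_05678. Over all members, every ethanol library lay below every control library for 1 at 15 hpf, 18 at 18 hpf and 0 at 21 hpf, where 7.46%, 13.8% and 1.27% of all tested gene models did so.

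**Figure D4:**
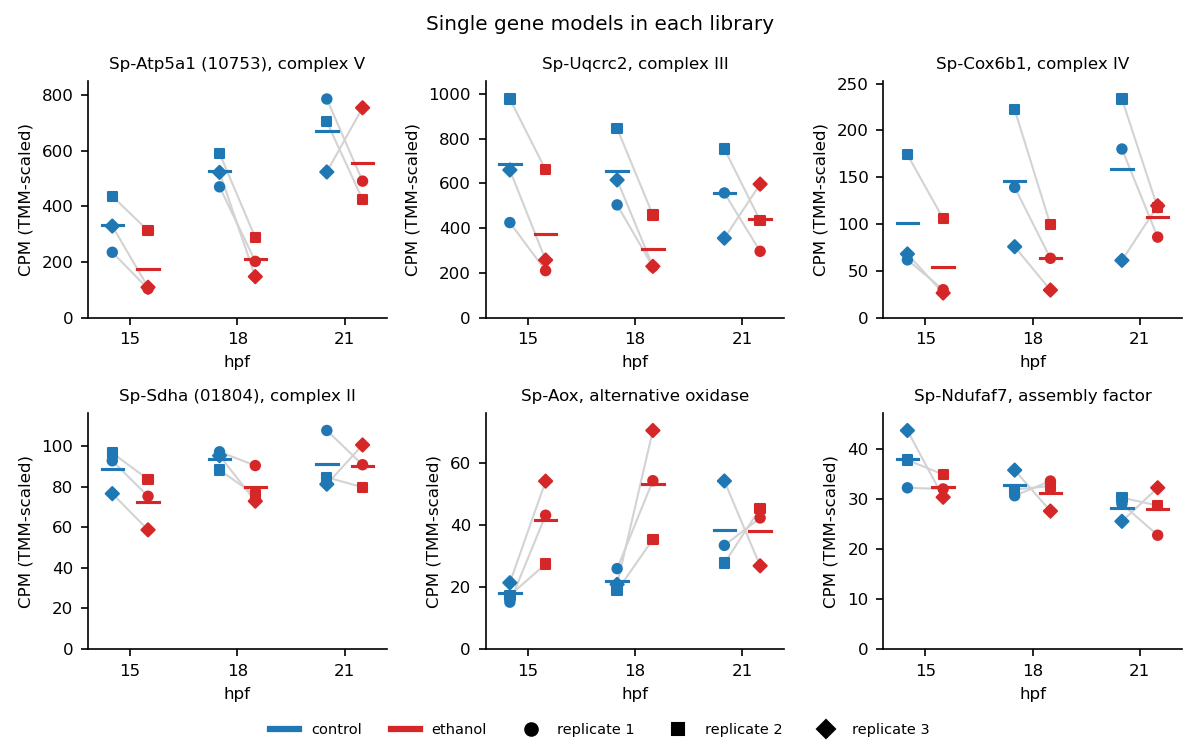
Level in CPM (vertical axis, from 0) of 6 genes in each library by time (horizontal axis), with points for replicates 1 to 3 of control and ethanol embryos. Atp5a1 L_var_10753 and Uqcrc2 separate without overlap at 18 hpf, Cox6b1 overlaps through a low replicate 3, Sdha L_var_01804 and Ndufaf7 lie close together, and Aox L_var_07178 is higher in ethanol in 8 of 9 pairs.

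From 15 to 21 hpf in control embryos none of the 58 was called when 3.88% of all tested gene models were. At an unadjusted p under 0.05 there were 3 members and 3307 of all 18674 tested gene models. DESeq2 called 0 members (7.93% of all tested gene models). The median over members was 0.04, beside 0.01 for all tested gene models, of which 49.2% were below 0. Here 12 of 13 complex V and 5 of 5 complex IV subunits were above 0, at medians of 0.61 and 0.64, against 9 of 27 for complex I (median -0.11) and 1 of 5 for complex III (median -0.31). The estimates were 1.01 ± 0.40 for Atp5a1 L_var_10753, 0.90 ± 0.33 for Atp5b L_var_00039 and 1.15 ± 0.67 for Sdhc, and at the other end -0.78 ± 0.58 for Uqcrb and -0.63 ± 0.52 and -0.56 ± 0.48 for the Ndufv1 copies. With the replicate 3 pair left out, the medians were 0.99 for complex V, 0.90 for complex IV, 0.22 for complex I and -0.07 for complex III, so the sign of the complex I median turned. No member was called without the pair (5.46% of all gene models), and the difference between complexes was not tested.

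With the replicate block, Sdhc (1.15 ± 0.37, adjusted p = 0.047) and Atp5a1 L_var_10606 (1.10 ± 0.34, adjusted p = 0.045) were called as higher at 21 hpf in control embryos. Of all tested gene models 7.35% were. Sdhc (chromosome 8, 20788713 to 20790740, plus strand) went from 5.52, 16.7 and 8.88 CPM at 15 hpf to 23.8, 36.9 and 7.90 CPM at 21 hpf in replicates 1 to 3. Replicates 1 and 2 were higher at 21 hpf and replicate 3 was lower.

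In ethanol-treated embryos 2 members were called as higher at 21 than at 15 hpf, when 2.97% of all tested gene models were. These were Atp5a1 L_var_10753 (1.67 ± 0.41, adjusted p = 0.032) and Atp5b L_var_00039 (1.48 ± 0.34, adjusted p = 0.022). The first went from 103, 312 and 109 CPM to 490.2, 424 and 754 CPM, without overlap, and the largest step was that of replicate 3. Neither was called without the replicate 3 pair at 21 hpf, when 2.68% of all gene models were, nor without replicate number 1 or 3 at all times, while leaving out number 2 gave 7 called members (2.42% of all gene models higher). The median over members was 0.32 (all tested gene models -0.06, with 54.7% below 0), from 0.92 for complex V and 0.70 for complex IV to 0.23 for complex I and 0.11 for complex III. All 13 complex V and all 5 complex IV subunits were above 0. Over 16 libraries these medians were 0.77, 0.63, 0.13 and -0.12.

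The blocked fit called 14 members as higher at 21 than at 15 hpf in ethanol embryos, when 8.05% of all tested gene models were. 7 belonged to complex V (both Atp5a1, both Atp5b and both Atp5o models and Atp5g1), 4 to complex I (Ndufs1, Ndufa10, Ndufb7 and Ndufb8), 2 to complex IV (Cox5b and Cox6b1) and 1 to complex II (Sdhc). The largest were Atp5a1 L_var_10753 at 1.83 (adjusted p = 0.0033) and L_var_10606 at 1.81 (adjusted p = 0.0034). With that pair left out it called 7 (7.44% of all gene models). In control embryos the same fit without that pair called 9 as higher (10.2%). The change in each treatment shares its libraries with the ethanol comparisons at 15 and 21 hpf, and whether it differed between treatments is part of the test of time dependence, which called no member.

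**Figure D5:**
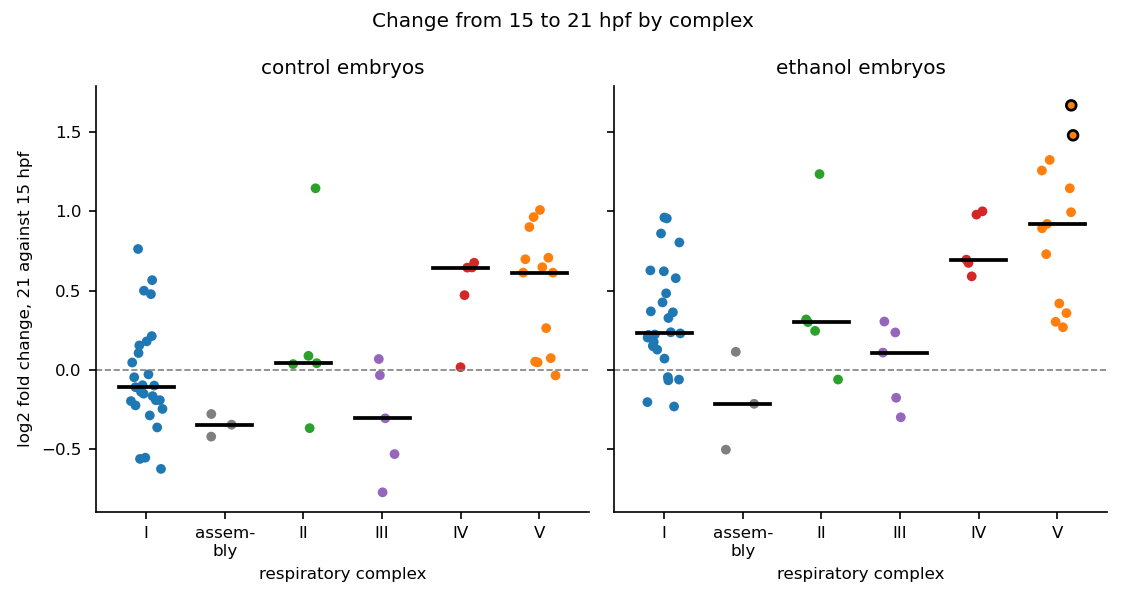
Log2 fold change from 15 to 21 hpf for each member by complex, in control embryos (left) and ethanol embryos (right), with black bars at the median and black-edged points for an adjusted p under 0.05 without the block. Complex IV and V medians lie between 0.61 and 0.92 in both panels, above those of complexes I and III, and the 2 black-edged points are Atp5a1 and Atp5b in ethanol embryos.

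The members also varied together across libraries. The level of a member correlated with the mean of the other members at a median r of 0.93 across the 18 libraries, and 48 of the 58 exceeded 0.8, from 0.29 for Ndufaf7 to 0.99 for Atp5f1, a subunit of the peripheral stalk. Besides Ndufaf7, the low values were those of Ndufs4 L_var_10538 (0.31), the Sdha copies (0.46 and 0.52), Ndufaf2 (0.52) and Atp5b L_var_00039 (0.57). The mean r of 1 member with another was 0.76, against 0.0015 over all genes, and is not given for the other lists. These correlations are across libraries that share depth, time and replicate number, and are given as a description. Of the variance of the members' median level, replicate number took 47.2%, treatment 22.6%, time 4.7% and treatment by time 5.1%, where the medians over all tested gene models were 28.5%, 8.5%, 10.7% and 5.3%.

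Proteins beside the respiratory chain were read from lists of names. Of 11 tested models for cytochrome c, carriers, the outer membrane channel and bypass proteins, 4 were below 0 on average and 7 above. None was called over the 18 libraries without the block. At 18 hpf cytochrome c Cycs_2 (L_var_21306) stood at 1944, 2260 and 1459 CPM in controls and 1343.5, 1661 and 1038.5 CPM in ethanol. The channel Vdac2 (L_var_26237) stood at 210, 455 and 234 CPM in controls and 127, 290 and 132 CPM in ethanol. For both, each ethanol library was below the control of its own number, with overlap between groups. Cycs (L_var_20624) held 105, 144 and 125 CPM in controls and 113, 237 and 106 CPM in ethanol, lower only in replicate 3. The ADP/ATP carrier Slc25a4 (L_var_02890), which exchanges the product of complex V for ADP, had an average of -0.76 ± 0.30 (edgeR adjusted p = 0.16). The phosphate carrier Slc25a3_2 (L_var_07492) had -0.67 ± 0.28 (edgeR adjusted p = 0.17). A model of low level named Slc25a3 (L_var_17598) ran upwards at 15 hpf. It held 0.257, 0.341 and 0.141 CPM in controls and 1.00, 2.33 and 0.45 CPM in ethanol. At 18 hpf Slc25a4 stood at 1812, 3324 and 2136 CPM in controls and 799, 1720.5 and 763 CPM in ethanol, without overlap. Another carrier of the list, Slc25a5 (L_var_25121), then stood at 2.67, 5.86 and 1.88 CPM in controls and 3.43, 11.3 and 2.64 CPM in ethanol. The uncoupling protein Ucp3 (L_var_26924) stood at 278, 298 and 476 CPM in controls and 398, 333 and 597 CPM in ethanol. For Slc25a5 and Ucp3, each ethanol library was above the control of its own number, with overlap between groups. The alternative oxidase Aox takes electrons from ubiquinol to oxygen past complexes III and IV.

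Aox L_var_07178 likewise ran opposite to the members. It stood at 15.2, 17.4 and 21.4 CPM in the controls of 15 hpf and 43.2, 27.5 and 54.3 CPM in ethanol, and at 26.0, 18.9 and 20.9 CPM in the controls of 18 hpf and 54.4, 35.4 and 70.6 CPM in ethanol. The ethanol libraries were higher without overlap at both times. At 21 hpf the controls held 33.5, 27.8 and 54.3 CPM and the ethanol libraries 42.4, 45.5 and 26.9 CPM, with overlap, replicate 3 being lower in ethanol. The average was 0.83 ± 0.19 (edgeR adjusted p = 0.051), just short of the threshold, and 1.00 ± 0.18 without the replicate 3 pair (adjusted p = 0.0027). The gene was chosen after its values were seen. A second Aox model, L_var_12408, had 0.43 ± 0.19 (adjusted p = 0.19).

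Other mitochondrial lists lay below 0 as well, and none of their models was called in the average over times with 18 libraries and no block. Of the TCA cycle and pyruvate dehydrogenase models 24 of 25 were below 0, at a median of -0.44. Of the mitochondrial ribosomal proteins 39 of 41 were, at -0.41, of the assembly factors of complexes I to V outside the members 18 of 19, at -0.38, and of the import proteins 10 of 11, at -0.33. Regulators of mitochondrial DNA and of nuclear genes for mitochondria divided evenly, with 7 of 14 below 0 and a median of 0.02. Over the 16 libraries, 4, 11, 7 and 3 models of these 4 lists and 1 regulator were called as lower, beside 9.86% of all gene models.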

How the data were processed

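Whole-number read counts per gene model were used as the authors deposited them, 1 column per library. Reads were processed with fastp, STAR and featureCounts, per the submitters' processing notes; settings, strand, annotation source and genome build are not given in the sources used here. Chromosome, position, S. purpuratus name and percent identity come from the annotation that the authors deposited. Members and gene lists were chosen with earlier results of these data known.

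In R 4.3.3 with edgeR 4.0.16, filterByExpr (minimum count 10, minimum total 15) kept 18674 gene models, TMM scaled the libraries, and 1 quasi-likelihood model of 6 group means gave every comparison, two-sided. The SE is the fold change divided by the square root of F. Levels are TMM-scaled CPM, and pair differences are of log2 CPM with a prior count of 2. The fit was tried on simulated data for 15 hpf only, with no replicate effect and less spread than the unblocked fit found here. Power and error at the spread of these data were not tested. Alternatives were DESeq2 1.42.0, other scalings, no filter, a replicate block, leaving out each replicate number, and leaving out both 21 hpf libraries of replicate 3.

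Replicate numbers come from the labels; the letters A, B and C of the deposited sample sheet, which tie count columns to samples, were read as replicates 1, 2 and 3. They were taken to pair libraries where every same-numbered correlation of deviations from group means exceeded 0.1: these were 0.742, 0.715 and 0.600 at 15 hpf, 0.630, 0.680 and 0.655 at 18 hpf, 0.223, 0.611 and 0.388 between control embryos of 15 and 21 hpf, and 0.573, 0.408 and 0.309 between ethanol embryos. At 21 hpf they were 0.156, 0.402 and -0.222. Without replicate 3 there, the value was 0.590.

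Named genes were core subunits, called members (at most 12 per comparison), those with the smallest p and the largest changes, the highest and lowest in level, assembly factors and shared names. One name is counted among the members but not reported here.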

Additional observations from a re-analysis of the deposited data

How the results depend on the processing

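With the replicate block, 4 members were called at 18 hpf, 48 on average over times, 2 in control embryos from 15 to 21 hpf and 14 in ethanol embryos, against 0, 0, 0 and 2 without it. At 15 and 21 hpf and for time dependence it called 0. The numbers do not pair libraries at 21 hpf by the correlation check, which bears on the 48 (12.2% of all tested gene models were lower). That fit also called as lower 3 of the 22 cell type marker models, 76 of 81 cytoplasmic ribosomal proteins, 24 of 34 proteasome subunits, 20 mitochondrial ribosomal proteins, 10 TCA cycle, 8 assembly factor, 5 import and 4 glycolysis models and 1 regulator, and of the carrier and bypass list 2 as lower and 3 as higher. Leaving out both 21 hpf libraries of replicate 3 gave 11 members on average and 0 in ethanol embryos from 15 to 21 hpf. The block together with leaving these out gave 25 at 15 hpf, 50 at 18 hpf, 14 at 21 hpf, 55 on average, 9 in control and 7 in ethanol embryos. DESeq2 gave 2 on average. Scaling by library totals gave 1 in control and 4 in ethanol embryos (2.86% and 2.6% of all genes higher). Leaving out 1 replicate number at a time gave 0 to 7 in ethanol embryos, and with the block 0 to 7 at 18 hpf, 0 to 5 at 21 hpf, 0 to 51 on average, 0 to 8 in control and 0 to 12 in ethanol embryos. At the highest of these counts, the share of all genes called in that direction was 2.42%, 3.5%, 3.43%, 17%, 6.91% and 4.97%, in the same order. Over all genes, 99 models were called on average, against 1453 with DESeq2, 3950 with the block, 3500 without the pair and 8671 with both. No called fold change reversed under any of these settings. Library totals moved the median of all genes to 0.32 at 15 hpf, 0.36 at 18 hpf and 0.23 on average; the members then lay 0.72, 0.95 and 0.63 below it, against 0.64, 0.94 and 0.62 with TMM. Relative log expression scaling and testing without the filter changed none of 348 member calls over the 6 fold-change comparisons. All 18 libraries correlated best with a library of their own replicate number, a hint from the data and not the design. The lowest count of a member in a library was 31.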

Other observations

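All 81 tested cytoplasmic ribosomal proteins were below 0 on average over times, at a median log2 fold change of -0.75, and 33 of 34 proteasome subunits were, at -0.53. None was called with 18 libraries and no block. Without the replicate 3 pair at 21 hpf, 2 of the first and 7 of the second were called as lower. Among all gene models 9.86% were. Of 14 tested glycolysis and lactate dehydrogenase models, 10 were below 0, at a median of -0.42.

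Lactate dehydrogenase Ldha (L_var_27187), which regenerates NAD+ from NADH without oxygen, rose from 15 to 21 hpf in control embryos by 6.59 ± 1.3 on the log2 scale (edgeR adjusted p = 0.011) and in ethanol embryos by 5.93 ± 1.27 (adjusted p = 0.014). It stood at 0.771, 1.02 and 0.423 CPM in the controls of 15 hpf and 51.5, 155 and 8.76 CPM at 21 hpf, without overlap. The 15 hpf levels, in ethanol 0.556, 1.24 and 0.335 CPM, rest on few reads, so the size of either rise is uncertain. At 18 hpf the controls held 9.998, 47.4 and 15.0 CPM and the ethanol libraries 1.26, 6.04 and 0.740 CPM, also without overlap, a difference of -3.19 ± 1.07 (adjusted p = 0.25). Leaving out replicate number 1 or 2 ended the call in controls (edgeR adjusted p = 0.15 and 0.13). Leaving out number 1 or 3 ended it in ethanol embryos (edgeR adjusted p = 0.14 and 0.18). L_var_27187 was chosen after its values were seen. Another Ldha model, L_var_27189, was higher at 15 hpf, at 23.0, 18.1 and 23.3 CPM in controls. At 21 hpf it held 23.1, 49.6 and 15.2 CPM in controls, with overlap. Ldha L_var_27188 went from 0.257, 0.341 and 0.423 CPM to 8.18, 18.8 and 0.617 CPM in controls.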
